A study of Schizosaccharomyces pombe with 16 samples.

Results

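The nuclear genes of the fission yeast respiratory chain and ATP synthase were described in 4 strains with altered RNA polymerase II. Members were the nuclear genes whose symbol is cox, atp, qcr or sdh followed by a digit, or is cyt1, cyc1 or rip1, matched to array probes by systematic ID. This rule uses no measured value. It found 52 genes, of which 48 had an exon probe, out of 5203 genes on the array. The 4 genes without one were cox7, cox14, cox20 and sdh8. All 48 passed the filter on missing values, 46 of them with a value on all 16 arrays, and atp18 and cox18 with a value on 15. Each member rests on 1 exon probe.

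The series compared Schizosaccharomyces pombe strains whose Rpb1, the largest subunit of RNA polymerase II, carried changes in its C-terminal domain, a tail of repeated heptads whose serines are phosphorylated during transcription. In S7A the seventh residue of the altered heptads was alanine, in S2A the second residue was alanine, in S2A/S7A both were, and in S7E the seventh was glutamate, a residue often used to mimic phosphate. Per the labels, all these strains shared a tail of 18 rump repeats followed by 14 altered ones, and cultures were taken in mid-log growth in YES, a rich medium. Splicing-sensitive 2-colour arrays carried a mutant in 1 colour and wild type (WT) in the other. There were 4 S7A arrays, 4 S2A arrays, 5 S2A/S7A arrays and 3 S7E arrays. Replicates were grown separately per the labels, while the number of clones per strain, further strain markers and the number of WT cultures behind the arrays are not given in the sources used here. If they were a single culture, a test of a mutant against 0 would leave out the WT spread. All 4 such comparisons share the WT strain. Probe sequences were not used here, so the arrays gave no check of the genotypes.

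The respiratory chain passes electrons from succinate or NADH through ubiquinone, complex III and cytochrome c to oxygen at complex IV, and ATP synthase uses the proton gradient that complexes III and IV build. Fission yeast has no proton-pumping complex I and relies on single-subunit NADH dehydrogenases. A few core subunits are encoded in mitochondrial DNA, while the genes described here are transcribed in the nucleus by RNA polymerase II and their products are imported. S. pombe grown on ample glucose ferments strongly, yet it does not normally survive loss of mitochondrial DNA. In these data the 3 complex II subunits among the members were higher than WT in each mutant. Most subunits of complex III, complex IV and ATP synthase were lower in S2A and S2A/S7A.

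Values are log2 of the mutant over WT, so that a negative value means lower in the mutant. Base 2 and this direction are likely rather than stated by the sources. A fitted value is a group mean from a model of all 16 arrays with a term for the dye of the mutant, and ± beside it is its standard error (SE). A gene rose or fell where its adjusted p in limma (Benjamini-Hochberg over all 5171 genes tested) was under 0.05. The number of arrays limits the precision. The median of all genes tested lay between 0.0027 (S7A) and 0.043 (S2A/S7A).

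S2A replicate 4 stood apart from the other S2A arrays for many members. In 144 sets of 1 member and 1 mutant with 4 or 5 arrays, 17 arrays lay far from the rest of their group, and 12 of these were S2A replicate 4. For cyc1 it read -0.074, while the other S2A arrays read between -1.10 and -1.10. Results for S2A are therefore also given without it below. In S7E, replicate 1 read 1.04 for cox6 against -0.21 and -0.11 on replicates 2 and 3.

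**Figure D1:**
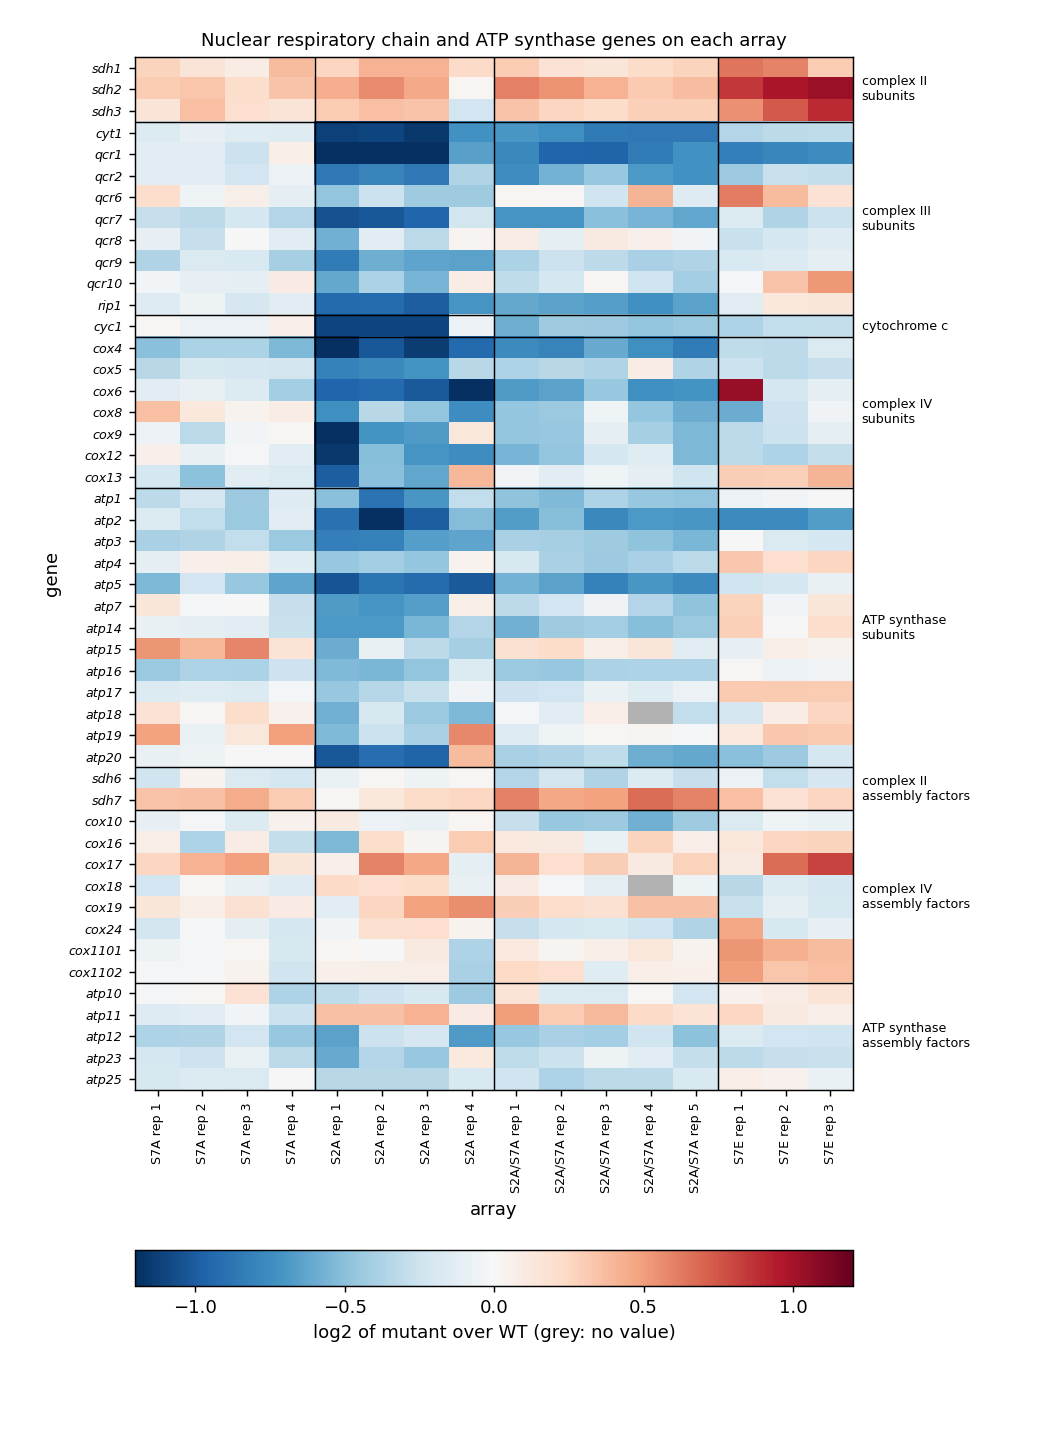
Log2 of mutant over WT for each of the 48 members (down) on each of the 16 arrays (across), with members grouped by complex, colour from blue (lower) to red (higher) and grey for no value. The 3 complex II subunits at the top are red on nearly every array, the complex III, complex IV and ATP synthase subunits are mostly blue in S2A and S2A/S7A, and S2A replicate 4 differs from the other S2A arrays.

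In S2A, 33 of the 48 members fell and 8 rose, where 27.1% of all genes tested fell and 31.3% rose. In S2A/S7A, 29 fell and 7 rose (all genes: 27.7% and 35.1%). In S7A, 12 fell and 6 rose (all genes: 16.6% and 18.0%). In S7E, 15 fell and 12 rose (all genes: 27.6% and 33.5%). Members that fell thus made up 68.8% of the 48 in S2A and 60.4% in S2A/S7A, both well above the share of all genes, and 25.0% in S7A and 31.2% in S7E, which lie closer to it. The median fitted value of the members was -0.12 in S7A, -0.41 in S2A, -0.27 in S2A/S7A and -0.012 in S7E. Without S2A replicate 4, 34 members fell in S2A and 7 rose. In S2A, 4 members rose when S2A replicate 3 was left out. In S7A, 21 members fell when S2A replicate 4 was left out of the shared fit, and 7 when S7A replicate 1 was. In S7E, 10 fell without replicate 1, 6 without replicate 2 and 9 without replicate 3. Shares of all genes are not given for these fits with an array left out. The counts therefore describe how far the calls depend on the fit, not a trait of the members.

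**Figure D2:**
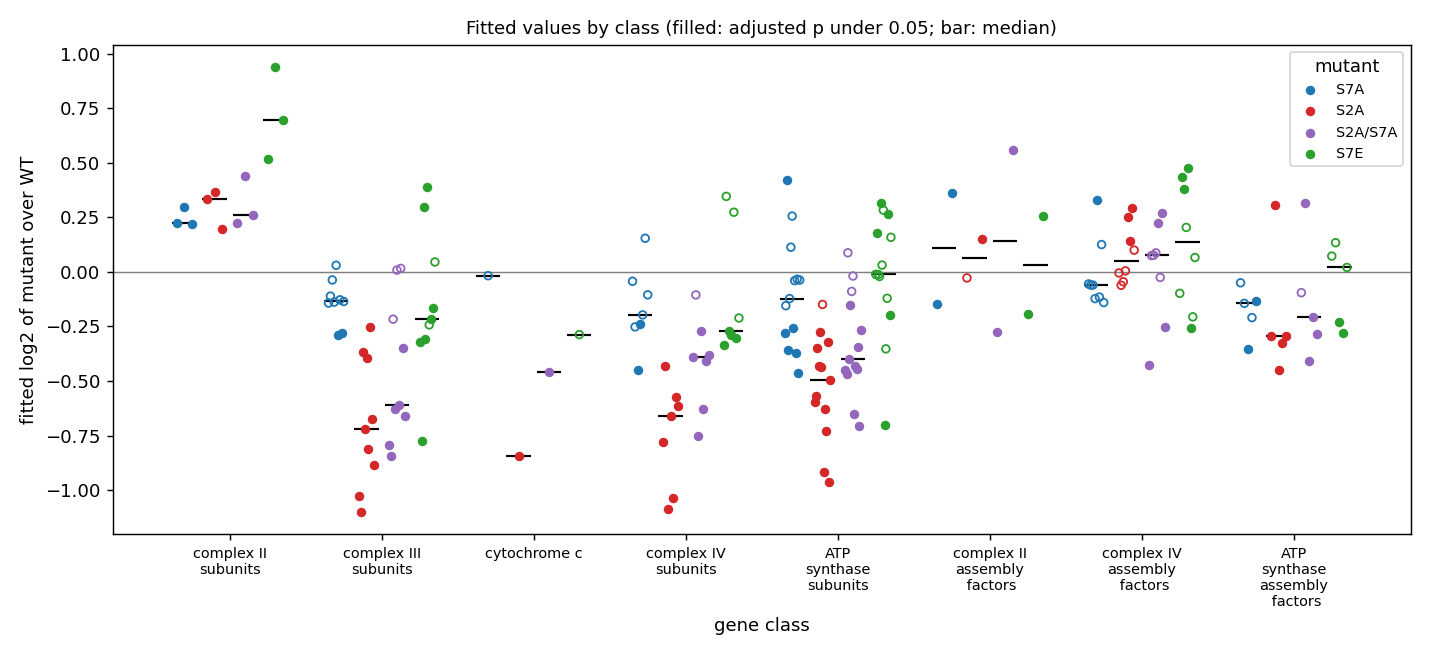
Fitted log2 of mutant over WT (vertical axis) for each member by class (horizontal axis) and mutant (colour), filled where the adjusted p was under 0.05, with black bars for class medians. The complex II subunits lie above 0 in each mutant, and the 30 subunits of complex III, cytochrome c, complex IV and ATP synthase lie below 0 in S2A.

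Complex II, succinate dehydrogenase, joins the tricarboxylic acid (TCA) cycle to the chain. Its subunits among the members, sdh1 (the flavoprotein), sdh2 (the iron-sulfur protein) and sdh3 (a membrane anchor), rose in all 4 mutants. Of all genes, 18.0% rose in S7A, 31.3% in S2A, 35.1% in S2A/S7A and 33.5% in S7E. A gene with the symbol sdh4 was not among the 52 found by the rule, so the class need not be the whole complex. The class median was 0.22 in S7A, 0.33 in S2A, 0.26 in S2A/S7A and 0.70 in S7E. For sdh2 (SPAC140.01), the S7E arrays read 0.85, 0.98 and 1.03, and the fit gave 0.94 ± 0.083 (limma adjusted p = 2.39e-07), a 1.92-fold higher level than WT. The other mutants gave 0.30, 0.34, 0.21 and 0.34 in S7A, 0.43, 0.56, 0.45 and 0.026 in S2A and 0.61, 0.54, 0.42, 0.31 and 0.37 in S2A/S7A. The S7E arrays lay above every array of the other mutants, and S2A replicate 4 was the lowest of all. The fitted value of sdh2 was 0.30 ± 0.071 in S7A (0.00467), 0.37 ± 0.071 in S2A (4.04e-04) and 0.44 ± 0.064 in S2A/S7A (2.69e-05), each with its limma adjusted p in parentheses.

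For sdh1 (SPAC1556.02c), the arrays read 0.27, 0.15, 0.093 and 0.38 in S7A, 0.26, 0.42, 0.42 and 0.23 in S2A, 0.30, 0.17, 0.15, 0.22 and 0.27 in S2A/S7A and 0.64, 0.59 and 0.31 in S7E. All 16 were above 0, and S7E replicate 3 lay among the S2A values. For sdh1 the fit gave 0.33 ± 0.061 in S2A (limma adjusted p = 2.94e-04) and 0.52 ± 0.072 in S7E (2.36e-05). For sdh3 (SPCC330.12c), the arrays read 0.16, 0.36, 0.20 and 0.15 in S7A, 0.30, 0.36, 0.35 and -0.23 in S2A, 0.34, 0.26, 0.22, 0.28 and 0.29 in S2A/S7A and 0.55, 0.73 and 0.90 in S7E. The only value below 0 was that of S2A replicate 4, and the S7E arrays were the highest. The fitted value of sdh3 was 0.70 ± 0.080 in S7E (limma adjusted p = 3.69e-06) and 0.19 ± 0.069 in S2A (0.0242), where it was 0.32 without replicate 4. In S7A, sdh1 was at 0.22 ± 0.061 (limma adjusted p = 0.0113) and sdh3 at 0.22 ± 0.069 (0.0228).

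Some of these calls depended on the setting. Without S7A replicate 1, sdh1 (0.21, limma adjusted p = 0.0546) and sdh3 (0.21, 0.0845) did not pass in S7A. Leaving out S7A replicate 4 also ended both calls, and leaving out replicate 2 ended that of sdh3. With the mean of all probes of a gene, intron probes included, sdh1 was at 0.044 in S7A (limma adjusted p = 0.557). In S2A the call of sdh3 was lost without replicate 1 (0.12, limma adjusted p = 0.18), without replicate 2, without replicate 3, with the arrays of S2A fitted alone (0.184) and with each array centred on its median (0.0506). No alternative ended a call of sdh2, or a call of sdh1 or sdh3 in S2A/S7A or S7E.

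Complex III, the cytochrome bc1 complex, moves electrons from ubiquinol to cytochrome c. All 9 of its nuclear subunits fell in S2A, 6 fell in S2A/S7A and 2 in S7A (qcr7 and qcr9), with none higher in these mutants. Of all genes, 27.1% fell in S2A, 27.7% in S2A/S7A and 16.6% in S7A. The S2A calls of qcr10 and qcr8 were lost under some alternative (limma adjusted p up to 0.759 and 0.811). S2A replicate 4 read 0.0885 for qcr10 and 0.0284 for qcr8, though both passed in S2A by probes across exon junctions. In S7E, 5 fell and 2, qcr6 (0.39) and qcr10 (0.30), rose (all genes: 27.6% and 33.5%). By junction probes neither rise passed in S7E (qcr6 0.13, limma adjusted p = 0.211, and qcr10 0.28, 0.0557). The S7E arrays of qcr10 read -0.012, 0.34 and 0.52. Of those that fell, qcr8 (-0.021, 0.846) and qcr9 (-0.080, 0.146) did not pass by junction probes either, while cyt1 (-0.36, 4.14e-04) did. The class median was -0.14 in S7A, -0.72 in S2A, -0.61 in S2A/S7A and -0.22 in S7E.

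Cytochrome c1, the heme-bearing subunit encoded by cyt1 (SPBC29A3.18), had the smallest p of the class in S2A and S2A/S7A. Its S2A arrays read -1.12, -1.10, -1.16 and -0.73, and its S2A/S7A arrays read -0.70, -0.74, -0.85, -0.86 and -0.85. The S7A arrays read -0.16, -0.099, -0.15 and -0.16 and the S7E arrays -0.36, -0.32 and -0.31. Every array of S2A and S2A/S7A lay below every array of S7A and S7E. The fitted value of cyt1 was -1.03 ± 0.059 in S2A (limma adjusted p = 2.35e-09), a 2.04-fold lower level than WT, and -0.80 ± 0.053 in S2A/S7A (7.47e-09). It was -0.32 ± 0.069 in S7E (9.97e-04) and -0.14 ± 0.059 in S7A (0.0743, not past the threshold).

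The Rieske iron-sulfur subunit, encoded by rip1 (SPBC16H5.06), read -0.94, -0.92, -0.99 and -0.70 in S2A and -0.61, -0.64, -0.66, -0.74 and -0.64 in S2A/S7A. It read -0.15, -0.059, -0.20 and -0.13 in S7A and -0.13, 0.13 and 0.14 in S7E. The S2A and S2A/S7A arrays again lay below all those of S7A and S7E, and the S7E arrays fell on both sides of 0. The fit of rip1 gave -0.89 ± 0.055 in S2A (limma adjusted p = 5.35e-09), -0.66 ± 0.049 in S2A/S7A (2.34e-08), -0.14 ± 0.055 in S7A (0.0683) and 0.046 ± 0.064 in S7E (0.553).

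The core subunit gene qcr1 (SPBP23A10.15c), whose budding yeast counterpart is a core protein of the complex, had the lowest fitted value of all members in S2A. Its arrays read -1.23, -1.25, -1.27 and -0.65 in S2A, -0.78, -0.95, -0.96, -0.84 and -0.73 in S2A/S7A and -0.82, -0.78 and -0.76 in S7E, against -0.13, -0.14, -0.26 and 0.078 in S7A. The S7E arrays lay within the range of S2A/S7A, and the S7A arrays above those of the other mutants. The fitted value of qcr1 was -1.10 ± 0.084 in S2A (limma adjusted p = 4.66e-08) and -0.77 ± 0.098 in S7E (9.66e-06). The small subunit gene qcr9 (SPCC1682.01) had the smallest p of the class in S7A, where its arrays read -0.36, -0.17, -0.18 and -0.40 and the fit gave -0.28 ± 0.049 (limma adjusted p = 4.98e-04). All 4 S7A arrays were below 0. In S2A, qcr9 read -0.84, -0.59, -0.63 and -0.64, all below the S7A arrays. The other complex III members had fitted values in S2A of -0.81 (qcr7), -0.72 (qcr2), -0.40 (qcr6), -0.37 (qcr10) and -0.25 (qcr8).

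Cytochrome c, encoded by cyc1 (SPCC191.07), carries electrons from complex III to complex IV. Its arrays read -1.10, -1.10, -1.10 and -0.074 in S2A and -0.59, -0.43, -0.43, -0.47 and -0.45 in S2A/S7A. They read 0.018, -0.075, -0.073 and 0.061 in S7A and -0.37, -0.29 and -0.29 in S7E. The S2A arrays lay below all others except for replicate 4, which sat among the S7A values, and all S2A/S7A arrays lay below 0. For cyc1 the fit gave -0.84 ± 0.11 in S2A (limma adjusted p = 1.71e-05), and -1.09 without replicate 4. It was -0.46 ± 0.10 in S2A/S7A (0.00131), -0.29 ± 0.13 in S7E (0.075) and -0.017 ± 0.11 in S7A (0.923), of which S7E and S7A did not pass the threshold.

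Complex IV, cytochrome c oxidase, reduces oxygen. All 7 nuclear subunits with an exon probe fell in S2A, 6 in S2A/S7A, 2 in S7A (cox4 and cox5) and 4 in S7E (cox4, cox5, cox8 and cox12). None rose. Of all genes, 27.1%, 27.7%, 16.6% and 27.6% fell in that order. By junction probes cox8 did not pass in S7E (-0.15, limma adjusted p = 0.189), while cox4 (-0.23, 0.0385) and cox12 (-0.42, 9.94e-04) did. The class median was -0.20 in S7A, -0.66 in S2A, -0.39 in S2A/S7A and -0.27 in S7E. The subunit gene cox4 (SPAC1296.02) had the smallest p of the class in each mutant. Its arrays read -1.25, -1.02, -1.14 and -0.93 in S2A, -0.76, -0.80, -0.61, -0.74 and -0.84 in S2A/S7A, -0.50, -0.38, -0.38 and -0.54 in S7A and -0.30, -0.32 and -0.18 in S7E. All 16 values lay below 0, and every S2A array was lower than every array of the other mutants. The fit of cox4 gave -1.09 ± 0.055 in S2A (limma adjusted p = 6.21e-10), a 2.12-fold lower level than WT. It was -0.75 ± 0.050 in S2A/S7A (6.80e-09), -0.45 ± 0.055 in S7A (2.06e-05) and -0.27 ± 0.064 in S7E (0.00217). The remaining subunit genes had fitted values in S2A from -1.03 (cox6) to -0.43 (cox13), with cox12 at -0.78, cox5 at -0.66, cox9 at -0.61 and cox8 at -0.57. For cox13 and cox9 the S2A arrays disagreed, since replicate 4 read 0.40 and 0.14 while the others were all below 0.

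ATP synthase makes ATP from the proton gradient. Of its 13 nuclear subunit genes, 12 fell in S2A, 10 in S2A/S7A, 5 in S7A (atp1, atp2, atp3, atp5 and atp16) and 2 in S7E (atp2 and atp5). Of all genes, 27.1%, 27.7%, 16.6% and 27.6% fell in that order. In S7A 1 subunit gene rose and in S7E 3 did (all genes: 18.0% and 33.5%), with none in S2A or S2A/S7A. The class median was -0.12 in S7A, -0.49 in S2A, -0.40 in S2A/S7A and -0.011 in S7E. The subunit that did not pass in S2A was atp19 (-0.15 ± 0.13, limma adjusted p = 0.332), whose S2A arrays read -0.53, -0.26, -0.39 and 0.58. Those arrays fell on both sides of 0, with replicate 4 the high one.

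The stalk subunit gene atp5 (SPCC1840.06), for the protein known as OSCP, read -1.03, -0.88, -0.93 and -1.01 in S2A, -0.56, -0.64, -0.81, -0.69 and -0.76 in S2A/S7A, -0.54, -0.23, -0.45 and -0.63 in S7A and -0.24, -0.20 and -0.088 in S7E. All 16 values were below 0, the S2A arrays were lower than all others, and the S7E arrays overlapped the S7A arrays only at the highest S7A value. In the fit, atp5 was -0.96 ± 0.051 in S2A (limma adjusted p = 1.12e-09), -0.71 ± 0.046 in S2A/S7A (6.28e-09), -0.46 ± 0.051 in S7A (7.52e-06) and -0.20 ± 0.060 in S7E (0.0107). By junction probes atp5 did not pass in S7E (-0.13, limma adjusted p = 0.0795), though it did in S2A, S2A/S7A and S7A. The catalytic beta subunit gene atp2 (SPAC222.12c) had the smallest p of the class in S7E, where its arrays read -0.76, -0.76 and -0.67 and the fit gave -0.70 ± 0.089 (limma adjusted p = 9.01e-06). Its arrays read -0.90, -1.27, -0.99 and -0.52 in S2A, -0.67, -0.51, -0.77, -0.69 and -0.70 in S2A/S7A and -0.17, -0.30, -0.44 and -0.12 in S7A. The S7E arrays lay within the S2A range, and the S7A arrays lay above all others.

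The alpha subunit gene atp1, which with atp2 encodes the catalytic head, and the gamma subunit gene atp3 fell in S2A (-0.59 and -0.73), in S2A/S7A (-0.45 and -0.45) and in S7A (-0.28 and -0.37). In S7E they were at -0.011 and -0.12, neither past the threshold. The epsilon subunit gene atp15 rose in S7A (0.42 ± 0.076, limma adjusted p = 6.45e-04) and fell in S2A (-0.35 ± 0.076, 0.00109). Its arrays read 0.53, 0.40, 0.58 and 0.17 in S7A and -0.59, -0.092, -0.32 and -0.39 in S2A, with no overlap, and S2A differed from S7A by -0.77 ± 0.11 (4.52e-05). The subunits of the membrane part or stalk that rose in S7E were atp4 (0.26 ± 0.087), atp14 (0.18 ± 0.067) and atp17 (0.31 ± 0.067), which all fell in S2A (-0.32, -0.57 and -0.27). With the mean of all probes of a gene, intron probes included, atp14 was at -0.017 in S7E and atp4 at 0.025, neither past the threshold (limma adjusted p = 0.753 and 0.762). Both also missed it without S7E replicate 1 or 3 and with the arrays scaled to equal spread. The other subunits that fell in S2A were atp20 (-0.63), atp7 (-0.49), atp18 (-0.44) and atp16 (-0.43).

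**Figure D3:**
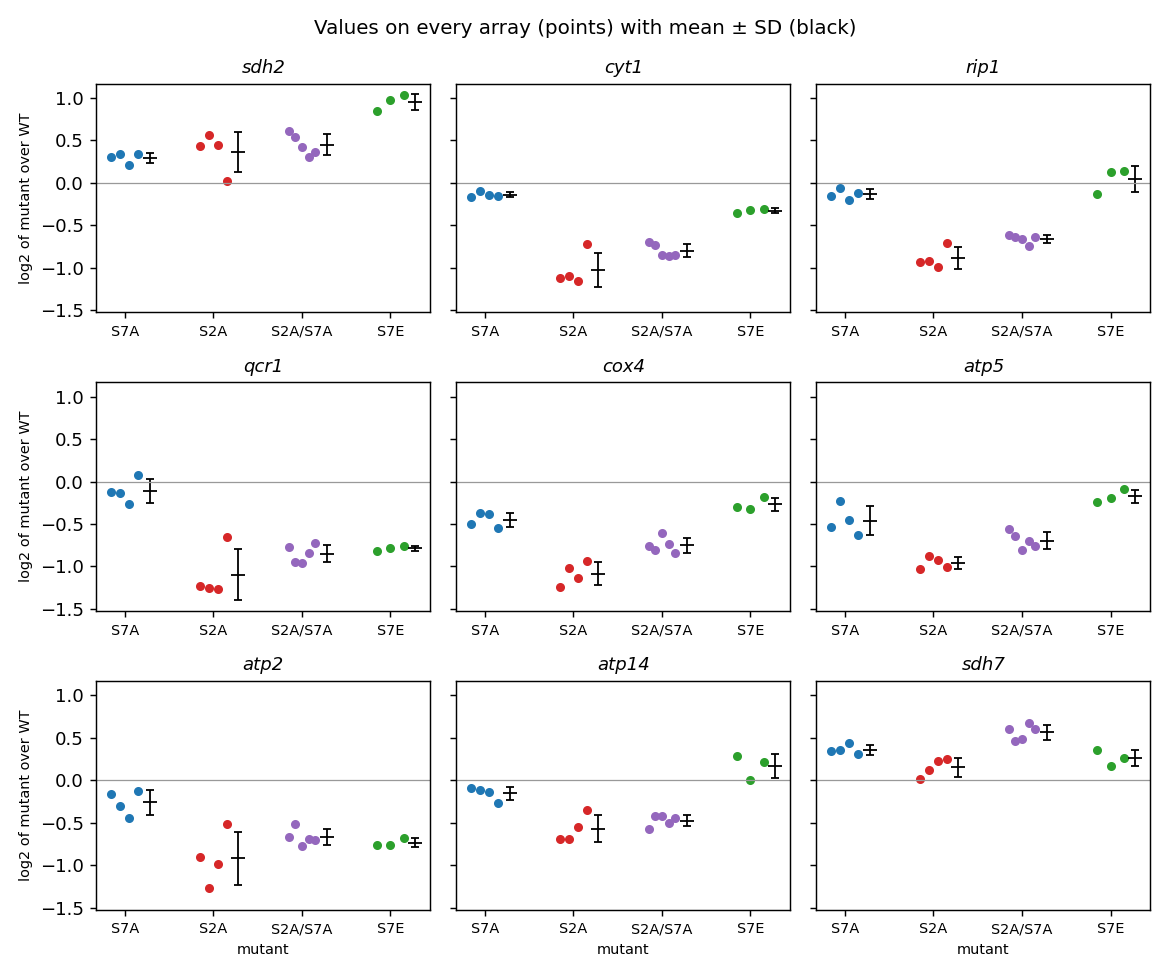
Log2 of mutant over WT on every array (coloured points) for 9 members in the 4 mutants, with the mean and SD of each group in black. The sdh2 arrays of S7E sit between 0.85 and 1.03, above the other mutants, while cyt1 and rip1 are lowest in S2A and S2A/S7A.

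The 15 members classed here as assembly factors, counted apart from the subunits, held genes that rose and genes that fell. In S2A, 4 fell and 5 rose (all genes: 27.1% and 31.3%), and in S2A/S7A 6 fell and 4 rose (27.7% and 35.1%). In S7A, 3 fell and 2 rose (16.6% and 18.0%), and in S7E 4 fell and 4 rose (27.6% and 33.5%). Among them sdh7 (SPBP23A10.03c), a complex II assembly factor, read 0.61, 0.46, 0.49, 0.67 and 0.60 in S2A/S7A, 0.34, 0.35, 0.44 and 0.31 in S7A, 0.36, 0.17 and 0.26 in S7E and 0.011, 0.12, 0.22 and 0.25 in S2A. All 16 values were above 0, and the S2A/S7A arrays were higher than all others. For sdh7 the fit gave 0.56 ± 0.045 in S2A/S7A (limma adjusted p = 5.22e-08), 0.36 ± 0.050 in S7A (6.18e-05), 0.25 ± 0.058 in S7E (0.00162) and 0.15 ± 0.050 in S2A (0.0169).

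The ATP synthase chaperone gene atp12 (SPAC9.12c), whose budding yeast counterpart helps assemble the catalytic head, read -0.64, -0.26, -0.21 and -0.68 in S2A, -0.45, -0.39, -0.41, -0.24 and -0.49 in S2A/S7A, -0.37, -0.36, -0.23 and -0.46 in S7A and -0.16, -0.23 and -0.24 in S7E. Every value was below 0 and the groups overlapped. Its fitted value was -0.45 ± 0.066 in S2A (limma adjusted p = 3.57e-05). The companion chaperone gene atp11 went the other way, at 0.30 ± 0.063 in S2A (7.22e-04) and 0.31 ± 0.057 in S2A/S7A (2.02e-04). Of the complex IV factors, 3 rose in S2A, namely cox17 (0.25) and cox19 (0.29), which handle copper, and cox18 (0.14), whose budding yeast counterpart inserts a subunit into the membrane. The S2A arrays of all 3 fell on both sides of 0. Each call was lost under some alternative (limma adjusted p up to 0.187, 0.308 and 0.205). By junction probes cox17 (0.23, limma adjusted p = 0.0552) and cox19 (0.105, 0.308) did not pass in S2A. The other ATP synthase factors fell in S2A, namely atp23 (-0.32), atp10 (-0.30) and atp25 (-0.29). The complex II factor sdh6 fell in S7A (-0.15), S2A/S7A (-0.28) and S7E (-0.19). Of the others classed with complex IV, cox24 fell in S2A/S7A (-0.25), and cox16 passed the threshold in none of the 4 mutants.

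The paralogs cox1101 (SPAC1420.04c) and cox1102 (SPAPB8E5.01), named after a copper-delivery factor, may share signal because near-identical copies cannot be told apart without probe sequences. In S7E, cox1101 read 0.53, 0.42 and 0.38 and cox1102 read 0.50, 0.33 and 0.36. In the other mutants cox1101 lay between -0.37 and 0.14. The S7E arrays were higher than those of every other mutant for both genes. The fitted value in S7E was 0.43 ± 0.070 for cox1101 (limma adjusted p = 9.98e-05) and 0.38 ± 0.087 for cox1102 (0.00159). Neither passed the threshold in S7A, S2A or S2A/S7A. The heme O synthase gene cox10 (SPBC365.02c), which makes a precursor of the heme of complex IV, read -0.27, -0.45, -0.43, -0.57 and -0.43 in S2A/S7A and 0.10, -0.068, -0.081 and 0.026 in S2A. The S2A/S7A arrays lay below all of the S2A arrays, and the fitted value was -0.43 ± 0.047 in S2A/S7A (limma adjusted p = 1.62e-06).

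Direct contrasts between the mutants tested these differences. S2A was lower than S7A for 26 members and higher for 2 (all genes: 20.0% and 21.9%). The smallest p were those of cyt1 (-0.88 ± 0.083, limma adjusted p = 1.11e-06) and rip1 (-0.75 ± 0.077, 2.57e-06). The 2 members higher in S2A than in S7A were atp11 (0.45) and cox18 (0.26). S2A/S7A was lower than S7A for 14 members and higher for 2 (all genes: 18.8% and 22.8%). Here too cyt1 (-0.65 ± 0.079, 1.31e-05) and rip1 (-0.53 ± 0.073, 4.84e-05) had the smallest adjusted p in limma. The 2 higher members were sdh7 (0.20) and atp11 (0.46).

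S7E was higher than S2A for 29 members and lower for 2 (all genes: 17.3% and 18.2%). The smallest p were those of rip1 (0.93 ± 0.084, limma adjusted p = 1.01e-06) and atp5 (0.76 ± 0.079, 3.45e-06). The 2 members lower in S7E were cox18 (-0.40) and cox19 (-0.50). By junction probes cox19 showed no such difference (-0.0023, limma adjusted p = 0.993). The subunits qcr1 (0.33, 0.0624) and atp2 (0.22, 0.164), the lowest in S7E, did not pass in this contrast. S7E was higher than S2A/S7A for 23 members and lower for 3 (all genes: 16.9% and 19.1%). There rip1 (0.71 ± 0.080, limma adjusted p = 1.18e-05) and atp14 (0.65 ± 0.085, 4.29e-05) led. For atp14 (SPBC29A3.10c), a stalk subunit, the arrays read 0.28, 0.0091 and 0.21 in S7E and -0.57, -0.42, -0.42, -0.51 and -0.45 in S2A/S7A, without overlap. The 3 members lower in S7E than in S2A/S7A were sdh7 (-0.31), cox18 (-0.23) and cox19 (-0.47).

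The contrast of glutamate with alanine at the seventh residue, S7E against S7A, gave 14 members higher in S7E and 5 lower (all genes: 22.8% and 20.2%). The smallest p were those of sdh2 (0.64 ± 0.11, limma adjusted p = 3.02e-04) and cox1101 (0.49 ± 0.093, 6.84e-04). All 3 complex II subunits among the members were higher in S7E than in S7A. The 5 lower members were qcr1 (-0.66), cox8 (-0.46), atp2 (-0.44), atp15 (-0.43) and cox19 (-0.33). By junction probes atp15 passed (-0.48, limma adjusted p = 0.00359), while cox8 (-0.32, 0.0558) and cox19 (-0.27, 0.1055) did not.

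S2A/S7A was higher than S2A for 12 members and lower for 3 (all genes: 12.0% and 11.3%). The smallest p were those of sdh7 (0.41 ± 0.067, limma adjusted p = 5.74e-04), higher in S2A/S7A, and cox10 (-0.42 ± 0.070, 6.14e-04), lower in S2A/S7A. The others lower were sdh6 (-0.25) and cox24 (-0.35). This contrast leaned on S2A replicate 4, without which 29 members passed in place of 15. A further contrast set S2A/S7A against the sum of S2A and S7A, so that a positive value means the double mutant lay above that sum. This contrast does not cancel WT, so the limit on the WT spread given for tests against 0 holds for it too. It passed the threshold with a positive value for 14 members and with a negative one for 2, sdh1 (-0.33) and cox10 (-0.37) (all genes: 13.6% and 12.8%). For cox4 the double mutant was at -0.75, with -1.09 in S2A and -0.45 in S7A, and the contrast gave 0.78 ± 0.092 (limma adjusted p = 2.87e-05). For atp5 it was at -0.71, with -0.96 in S2A and -0.46 in S7A, and the contrast gave 0.72 ± 0.086 (3.29e-05). Without S2A replicate 4, 29 members passed this contrast in place of 16. The share of all genes without that array is not given for either contrast.

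**Figure D4:**
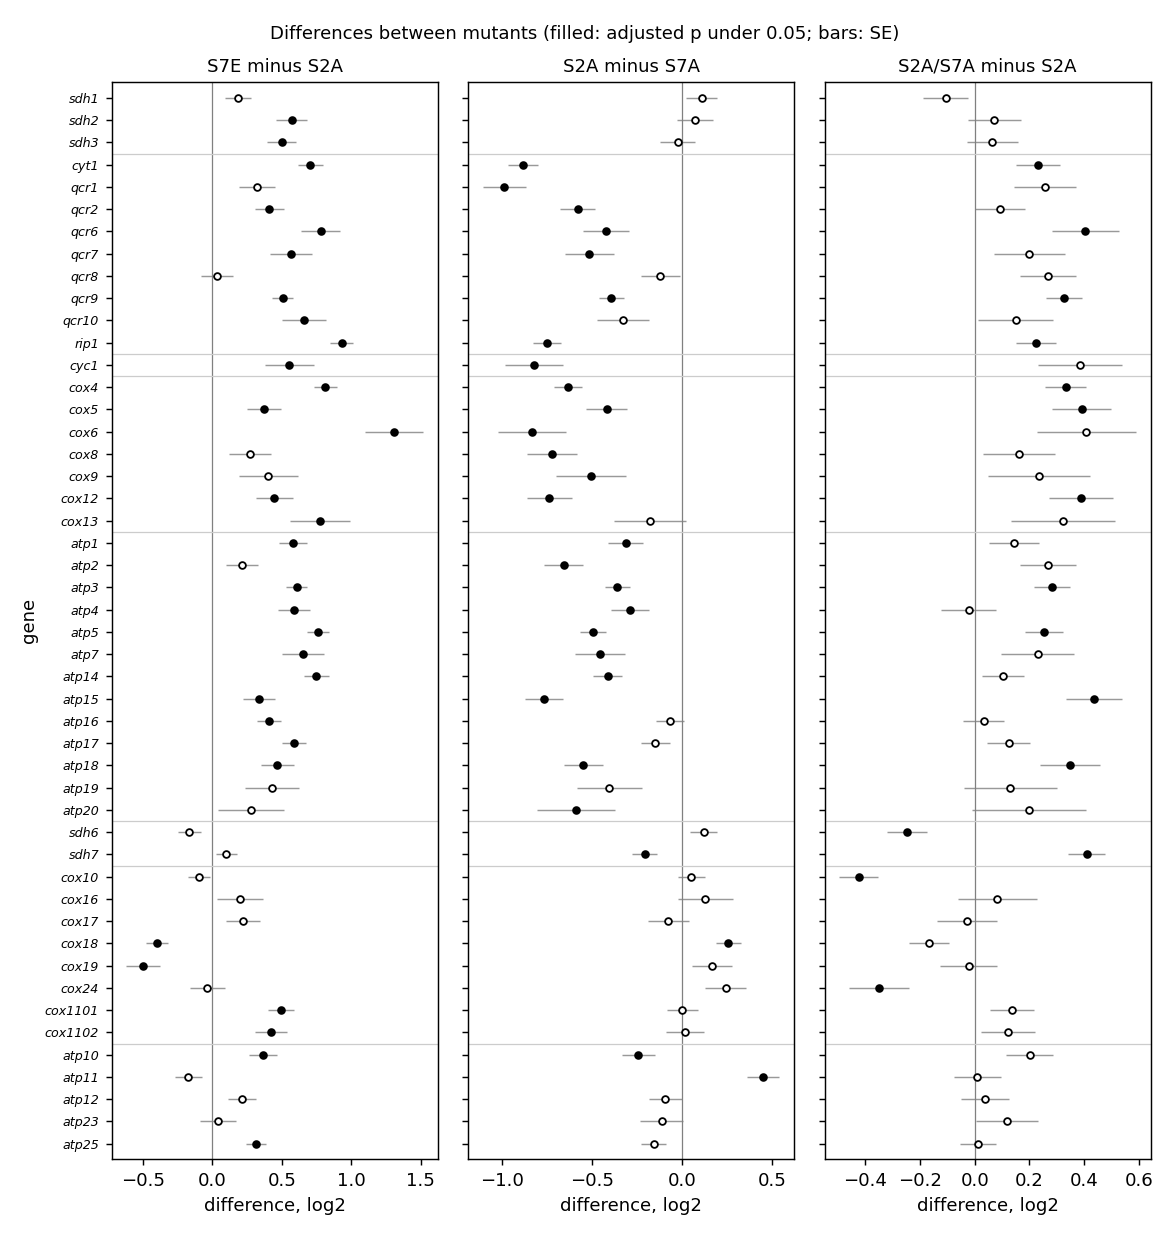
Difference of fitted log2 values between mutants (horizontal axis, with SE bars) for each of the 48 members (vertical axis), filled where the adjusted p was under 0.05. In S7E minus S2A most subunits of complex III, complex IV and ATP synthase lie right of 0, in S2A minus S7A they lie left of it, and in S2A/S7A minus S2A they run from -0.023 (atp4) to 0.44 (atp15), with the assembly factor cox10 at -0.42.

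Of the 48 members, 31 also had intron probes, and 30 had probes across the junction of adjacent exons, 29 of them fitted, which read spliced RNA of the same samples at another place. By junction probes alone, 21 of 29 members fell in S2A and 2 rose, where 30.0% and 28.6% of 2190 genes with junction probes did. The 21 members that fell by junction probes in S2A were the same 21 that fell by exon probes among these 29. In S2A/S7A, 18 fell by junction probes, among them all 16 that fell by exon probes, and 5 rose (all genes: 29.0% and 35.6%). In S7A 6 fell by junction probes and 6 by exon probes, 4 of them by both (all genes by junction probes: 13.6% lower and 25.8% higher), and 5 rose. In S7E 5 fell by junction probes and 8 by exon probes, with 4 in common, and 7 rose by junction probes (all genes: 28.8% and 32.1%). No member was called in opposite directions by the 2 readouts in any mutant.

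The junction value of cyt1 in S2A was -1.09 (limma adjusted p = 1.30e-09) and that of cox4 was -0.97 (5.70e-08), beside -1.03 and -1.09 by exon probes. The 2 readouts thus differed by little for these genes. They parted for cox6 in S7E, at -0.19 by junction probe (0.00975) and 0.27 ± 0.16 by exon probe (0.143), where replicate 1 was the high array. The junction minus exon value of cox6 in S7E was itself not past the threshold, at -0.46 (limma adjusted p = 0.0608).

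**Figure D5:**
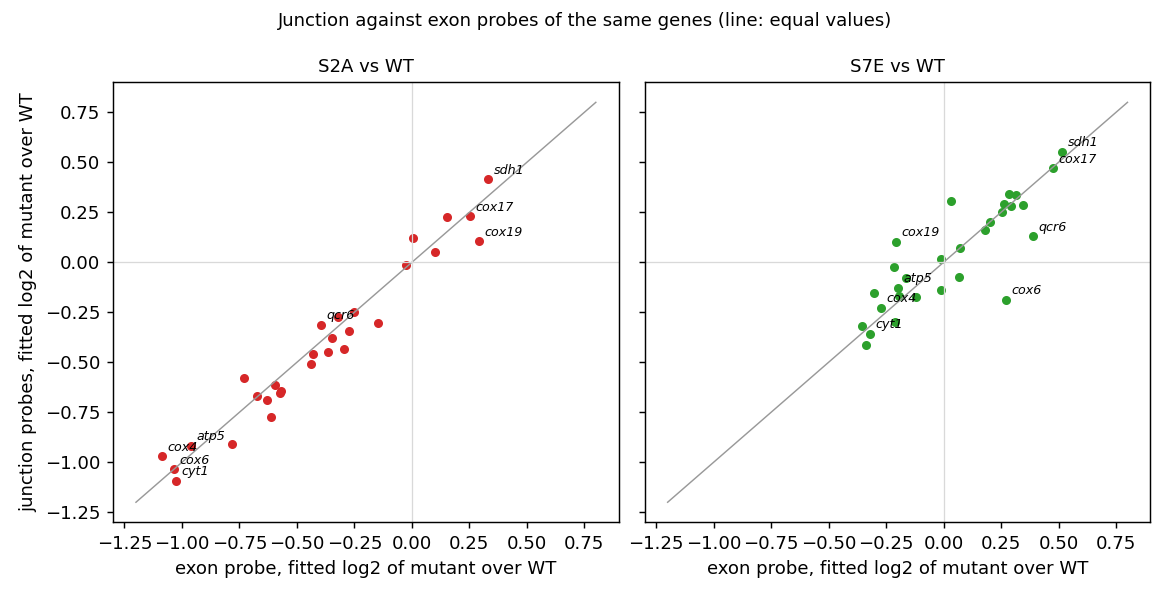
Fitted log2 of mutant over WT by junction probes (vertical axis) against exon probes (horizontal axis) for 29 members in S2A (left) and S7E (right), with a line of equal values. In S2A the points follow the line down to cyt1, cox4 and cox6, and in S7E cox6 lies below it, at -0.19 by junction and 0.27 by exon probe.

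Intron probes are meant to read unspliced or retained RNA, and 30 of the 54 intron probes of members lay above 0 in S2A. For the 54 intron probes of 29 members tested, the difference of intron from exon probe rose for 37 and fell for 2 in S2A (all such probes: 20.0% and 19.1%). In S2A/S7A it rose for 27 and fell for 4 (all probes: 16.4% and 33.6%). In S7A it rose for 11 and fell for 13 (6.75% and 30.2%), and in S7E for 9 and 8 (18.3% and 25.8%). A lower exon value raises this difference by itself, so the intron probes' own level matters. Its median over the 54 probes was 0.022 in S2A, where the exon median of the same genes was -0.40. A probe that read only background would also give a value near 0. Whether these probes read above background was not tested, since only ratios were used. For cox4 the intron probe itself averaged 0.017 in S2A and the difference was 1.10 (limma adjusted p = 1.65e-07). The first intron of atp14 was unlike most, with its own mean at 1.08 and a difference of 1.65 (4.47e-08). Of 55 junction minus exon values, 2 rose and 1 fell in S7A (all probes: 11.7% and 2.01%), 0 rose and 3 fell in S2A (all probes: 6.50% and 7.99%), 0 rose and 0 fell in S2A/S7A (all probes: 7.61% and 5.10%) and 3 rose and 1 fell in S7E (all probes: 5.40% and 4.70%).

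The genes that feed the chain were counted from lists, to be read against the shares of all genes given above. Of 12 TCA cycle genes, 8 rose and 1 fell in S7A, 5 rose and 4 fell in S2A, 9 rose and 2 fell in S2A/S7A, and 8 rose and none fell in S7E. Their median was 0.23 in S7A, 0.032 in S2A, 0.42 in S2A/S7A and 0.39 in S7E. Citrate synthase cit1 rose in each, at 0.61 in S7A, 0.56 in S2A, 0.83 in S2A/S7A and 0.44 in S7E. Aconitase aco1, an iron-sulfur enzyme, rose as well, at 0.52, 0.54, 0.69 and 0.87 in the same order of mutants. Both enzymes act in the same cycle as complex II. All 3 NADH and glycerol-3-phosphate dehydrogenase genes fell in S2A, namely nde1 (-1.10), gut2 (-0.63) and ndi1 (-0.16). In S2A/S7A, nde1 (-0.93) and gut2 (-0.52) fell, while gut2 rose in S7A (0.47). In S7E, nde1 fell (-0.57, limma adjusted p = 2.39e-04), ndi1 rose (0.33, 6.33e-04) and gut2 was at -0.12 (0.389), not past the threshold.

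Among all genes tested, 18.0% rose and 16.6% fell in S7A, and 31.3% and 27.1% did in S2A. In S2A/S7A the shares were 35.1% and 27.7%, and in S7E they were 33.5% and 27.6%. Of 9 heme synthesis genes, none passed the threshold in S7A, 5 fell in S2A and 4 in S2A/S7A, and 5 fell and 1 rose in S7E. Their median was -0.087 in S7A, -0.19 in S2A, -0.082 in S2A/S7A and -0.19 in S7E. Among them hem1, for the first enzyme of the pathway, fell by 1.11 on the log2 scale in S7E, and hem12 fell by 0.98 in S2A/S7A. Of 14 ubiquinone synthesis genes, 1 rose and 6 fell in S7A, 6 rose and 2 fell in S2A, 5 rose and 5 fell in S2A/S7A, and 4 rose and 6 fell in S7E, with medians of -0.10 in S7A, 0.083 in S2A, -0.0066 in S2A/S7A and -0.11 in S7E. Of 20 assembly genes outside the naming rule, 4 rose and 3 fell in S7A, 6 rose and 7 fell in S2A, 6 rose and 10 fell in S2A/S7A, and 4 rose and 5 fell in S7E, with medians of -0.020 in S7A, 0.030 in S2A, -0.11 in S2A/S7A and -0.064 in S7E. They included cbp3, whose budding yeast counterpart helps assemble complex III (-0.65 in S2A and -0.85 in S2A/S7A). The ADP/ATP carrier gene anc1 fell in S2A (-0.31) and S2A/S7A (-0.23).

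The CCAAT-binding complex, with subunits encoded by php2, php3, php4 and php5, acts on respiratory genes in fission yeast, and its subunit Php4 represses iron-using genes when iron is scarce. Php4 RNA fell in S7A (-0.64, limma adjusted p = 3.02e-06), S7E (-0.61, 6.37e-06) and S2A (-0.21, 0.00896), and was at 0.10 in S2A/S7A (0.168). The subunit gene php2 rose in each mutant, by 0.23 in S2A/S7A to 0.70 in S7E. The subunit gene php5 fell in S2A (-0.39, 1.62e-05) and rose in S7E (0.42, 3.14e-05), and was at -0.061 in S2A/S7A (0.268). For php3 the values were -0.16 in S2A, not past the threshold, and 0.29 in S7E and 0.16 in S2A/S7A (limma adjusted p = 0.0495), where it rose. In S7A, php3 and php5 were not past the threshold. The iron repressor gene fep1 fell in S2A (-0.20), S2A/S7A (-0.24) and S7E (-0.38), and the iron-sensing glutaredoxin gene grx4 fell in S7A (-0.38) and rose in S2A/S7A (0.34). The part of these regulators in the members' values was not tested.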

How the data were processed

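RNA of 4 mutants was compared with WT on 16 splicing-sensitive 2-colour Agilent arrays. The authors deposited 1 value for each probe on each array, read here as log2 of mutant over WT. Base and direction are likely but unstated, and how the authors normalized them is not stated in the sources used. Depth has no meaning for arrays, and their number limits the precision. Across genes, 16 pairs of arrays that held 1 mutant in opposite dyes had r between 0.57 and 0.97, so the deposited values had already been turned to 1 direction. Of 15207 probes, 5097 were for exons, 4885 for introns and 4697 for junctions of adjacent exons, and 11445 probe values were missing.

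A gene value was the mean of its exon probes (of its probes, for a non-coding RNA). Names came from a RefSeq table of assembly ASM294v3, in which 5106 of 5215 IDs matched. No coordinates are printed because the files name no build. Genes with values on at least 2 arrays in every group were tested (5171). limma (version 3.58.1, R 4.3.3) was run on all arrays (lmFit, eBayes) with 4 group means and, for each gene, a dye term. Each mutant was tested against 0, and 7 further contrasts compared the mutants, all two-sided, with Benjamini-Hochberg adjustment over all genes tested and a threshold of 0.05. Intron and junction probes were fitted likewise after the gene's exon mean was subtracted. Replicate numbers were not used to pair the arrays, as given below.

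Members and lists were chosen with earlier results of these data known. Members given in full are, per mutant, the one with the smallest p in each complex and among the assembly factors, the 2 with the smallest p in each contrast between mutants, and always cyc1, cyt1, rip1, sdh1, sdh2, sdh3, cox1101 and cox1102. From each list, up to 3 genes with the smallest p could be named, and always php2, php3, php4, php5, fep1 and grx4. Other members named singly, such as atp15, atp11 and cox6, were chosen after their values were seen. Alternatives changed the dye term, centring, scaling, array weights, filters, probes, arrays in the fit, the prior spread and the replicate block.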

Additional observations from a re-analysis of the deposited data

Results flagged for a closer look

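Among 144 sets of 1 member and 1 mutant with 4 or 5 arrays, 17 held an array whose gap to the nearest other, divided by the range of the group, passed Dixon's 95% critical value. Chance flags about 1 in 20 sets. S2A replicate 4 was the array in 12 of them, and it read closer to 0 than the other S2A arrays, or past it, for most of the subunits. It read -0.074 for cyc1, -0.73 for cyt1, -0.65 for qcr1, -0.36 for qcr2 and -0.22 for qcr7, and all of these lay above the other S2A arrays. Among ATP synthase genes it read 0.38 for atp20, 0.043 for atp4, 0.066 for atp7 and -0.18 for atp25, again above the others. It lay below the other S2A arrays for sdh3 (-0.23), cox18 (-0.091) and cox1102 (-0.39).

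The other 5 sets were spread over 4 arrays. S7A replicate 4 was closer to 0 than the other S7A arrays for atp25 (-0.0043) and atp17 (-0.018). In S2A/S7A, replicate 4 read 0.090 for cox5, replicate 3 read -0.054 for cox8 and replicate 1 read -0.59 for cyc1. The part of culture, RNA or array in these values was not tested.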

How the results depend on the processing

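Of 192 member values against WT, 122 passed the threshold, and 79 of these passed under each alternative run that gave a value. Whichever array was left out, 30 of the 33 members that fell in S2A and 25 of the 29 in S2A/S7A passed, but 7 of the 12 in S7A and 5 of the 15 in S7E. Of the members that rose, 4 of 6 in S7A, 4 of 8 in S2A, 6 of 7 in S2A/S7A and 7 of 12 in S7E did so. Except for junction probes in place of exon probes, shares of all genes are not given for the alternatives. The counts below therefore describe dependence on the fit, not a trait of the members. Leaving out 1 array in turn gave 4 to 7 members higher and 7 to 21 lower in S7A, 4 to 8 and 30 to 34 in S2A, 6 to 7 and 25 to 30 in S2A/S7A, and 8 to 14 and 6 to 19 in S7E. The lowest and highest numbers past the threshold were 21 and 34 for S2A against S7A, 12 and 20 for S2A/S7A against S7A, 7 and 29 for S2A/S7A against S2A, 11 and 24 for S7E against S7A, 28 and 36 for S7E against S2A, 20 and 31 for S7E against S2A/S7A, and 12 and 29 for non-additivity. For intron probes they were 16 and 26 in S7A, 31 and 42 in S2A, 23 and 36 in S2A/S7A and 7 and 19 in S7E, and for junction probes 1 and 5, 1 and 5, 0 and 2, and 0 and 6 in the same order. With 3 arrays left out together (replicate 4 of S7A and of S2A, replicate 1 of S7E), 19 members fell in S7E, 33 passed for S2A/S7A against S2A and 33 for non-additivity, and junction probes gave 6 in S7A, 6 in S2A, 4 in S2A/S7A and 1 in S7E.

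Scaling the arrays to equal spread gave 23 members lower in S7A, 9 past the threshold for S2A/S7A against S2A and 1 junction probe in S2A/S7A. Array weights gave 25 lower in S7A, 32 for S2A/S7A against S2A, 32 for non-additivity, and 14 junction probes in S7A, 11 in S2A and 1 in S2A/S7A. Fitting the arrays of the compared groups alone gave 4 members higher in S2A, 19 higher in S7E, 37 intron probes in S7E, and 10, 0, 3 and 12 junction probes in S7A, S2A, S2A/S7A and S7E. Junction probes in place of exon probes, for 29 members, gave 6 lower in S7A, 2 higher and 21 lower in S2A, 18 lower in S2A/S7A, and 7 higher and 5 lower in S7E. They gave 17 for S2A against S7A, 8 for S7E against S7A, 17 for S7E against S2A and 14 for S7E against S2A/S7A, over fewer genes. Values on all 16 arrays gave 1 junction probe in S2A and 2 in S7E, and no dye term 2 in S7E. Among values past the threshold as reported or under the alternative, the signs turned for cox24 in S7E with array weights (-0.17), for cox17 in S7A (-0.0012), qcr8 (0.14) and atp14 (-0.017) in S7E with the mean of all probes of a gene, and for cox6 in S7E with junction probes (-0.19), and the cause was not tested. Values that passed in neither, such as cox9 in S7E, changed sign as well.

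Same-numbered arrays of different mutants had deviations that correlated at r from -0.22 to 0.41 (21 pairs, median 0.085). Arrays with different numbers had a median of -0.0015 (74 pairs). Of 15 arrays, 5 correlated best with their own number. The numbers were therefore not used as pairs, although weak correlation cannot exclude that same-numbered arrays were handled together. With the replicate block, 6 members rose and 12 fell in S7A, 8 and 33 in S2A, 7 and 30 in S2A/S7A, and 14 and 13 in S7E, with 2 junction probes in S7E. The search of promoters for CCAAT was not run, since no promoter sequence was used here. Every member rests on 1 exon probe, the number of WT cultures is not given, and S7E has 3 arrays.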

Other observations

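Genes of mitochondrial gene expression were counted from lists as well. In the whole table, 18.0% of genes rose and 16.6% fell in S7A, 31.3% and 27.1% in S2A, 35.1% and 27.7% in S2A/S7A, and 33.5% and 27.6% in S7E. Of 60 mitochondrial ribosomal protein genes, 3 rose and 17 fell in S7A, 16 rose and 11 fell in S2A, 25 rose and 10 fell in S2A/S7A and 20 rose and 9 fell in S7E, with medians of -0.064 in S7A, 0.016 in S2A, 0.096 in S2A/S7A and 0.11 in S7E. Among them mrpl9 rose in S2A (0.62), S2A/S7A (0.56) and S7E (0.37) and fell in S7A (-0.16). Of 11 genes for PPR proteins and related factors of mitochondrial RNA, 0 rose and 4 fell in S7A, 3 rose and 5 fell in S2A, 3 rose and 6 fell in S2A/S7A and 0 rose and 5 fell in S7E. The gene mtf1, for a mitochondrial transcription factor, rose in S2A (0.73) and S2A/S7A (0.31) and fell in S7A (-0.21) and S7E (-0.15). Of 11 mitochondrially encoded IDs, 0 rose and 4 fell in S7A, 0 rose and 1 fell in S2A, 5 rose and 0 fell in S2A/S7A and 6 rose and 0 fell in S7E. The ID SPMIT.08 was at 0.98 in S7E and 0.80 in S2A/S7A, and at -0.24 in S7A and 0.028 in S2A.

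In S2A, 23 of the 31 members with an intron probe fell, and 10 of the 17 without one fell, with medians of -0.40 and -0.43. By chromosome, 11 of 20 members on I, 12 of 15 on II and 10 of 13 on III fell in S2A, where 27.1% of all genes did. These splits were not tested against each other.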
